A study of Mus musculus with 9 samples.

Results

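The cells described here are barcodes with RNA of young GABAergic neurons, called neuroblast-like cells, in the brains and brain tumors of mice profiled by 5′ single-cell RNA sequencing. They were chosen by their own counts. Of the 10000 barcodes with most UMIs (unique molecular identifiers, each standing for 1 captured RNA molecule) in each mouse, or all 9001 in tumor 3, those with 200 to 6000 genes and under 15% mitochondrial UMIs were kept, and a kept barcode was taken as a member when at least 3 of the 8 genes Dcx, Igfbpl1, Dlx1, Dlx2, Dlx5, Dlx6os1, Sp9 and Gad2 had a UMI and Malat1 made up under 5% of its UMIs. There were 2748 members among 64617 kept barcodes, 220 in controls and 2528 in tumors, and tumor 5 alone held 2259 of them.

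Control mice (n = 4) carried NestinCreERT2 and TdT, a red fluorescent reporter, and tumor mice (n = 5) carried NestinCreERT2 and Fus1, the ZFTA-RELA fusion gene of supratentorial ependymoma. All mice were 6 to 8 weeks old. In both groups a tamoxifen-inducible Cre was driven from Nestin, a gene of neural stem cells, and in tumor mice the fusion allele was recombined in embryonic radial glia and also carried an IRES and luciferase. The labels name the reporter for the controls only, whereas the study's methods also describe red fluorescence in tumor mice. Tumor, or the matching brain region in mice without one, was dissected out, freed of choroid plexus and dissociated, and live cells without the red cell antigen Ter119 were sorted. UMIs of the fusion, luciferase or IRES are called transgene UMIs below.

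In the adult mouse brain, neuroblasts are born in the wall of the lateral ventricle and migrate to the olfactory bulb, where they become GABAergic interneurons. DLX homeodomain factors drive the GABAergic fate, and Sp8, Sp9 and Meis2 accompany them in olfactory neuroblasts. Dcx, a microtubule-binding protein, and Igfbpl1 mark neurons that are still immature, and Gad2 makes GABA. Dlx6os1 is a long non-coding RNA transcribed opposite Dlx6, in the same cluster as Dlx5.

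The rule genes lie partly in DLX clusters. On GRCm38, Dlx1 (chr2:71528113-71533981, plus strand) and Dlx2 (chr2:71543408-71546754, minus strand) are neighbours, and Dlx6os1 (chr6:6820189-6871592, minus strand) spans Dlx6 and starts close to Dlx5 (chr6:6877805-6882085, minus strand). DLX factors, like many homeodomain proteins, bind the sequence TAATTA, which reads the same on both strands. Promoter windows from RefSeq (GRCm38.p6, 250 bases before to 50 bases after a start) were found for 6 of the 8 rule genes, but not for Dlx5 and Igfbpl1. Of the 8 windows of these genes, 4 held TAATTA, against 5.29% of all 32851 windows, and these 4 belonged to Dlx6os1 and Dcx, each with 2 starts. The 3 matches before the starts of Dlx6os1 are shown because Dlx6os1 had the most matches of the rule genes in the table, with the motif in capitals and the minus strand read 5′ to 3′.
Dlx6os1, chr6:6869646-6869675: gaaaattacaggTAATTAtctttgacggta
Dlx6os1, chr6:6869590-6869619: gaaaaattactcTAATTAtggctgcattta
Dlx6os1, chr6:6861840-6861869: taaattatcctcTAATTAtacaccagtgtc
These are matches of letters, and no binding was measured.

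The libraries differed between the groups in ways that touch the members. Total UMIs ranged from 101060608 to 178086164 in controls and from 14967680 to 69411387 in tumors. Mitochondrial UMIs made up 8.94 to 9.93% of the members' UMIs in controls and 2.08 to 7.77% in tumors. No member barcode was shared between any 2 of the 8 libraries whose barcode lists could be read, and control 4, whose list was 22 entries short, was not compared. RNA free in the suspension was gauged from the 3000 barcodes with fewest UMIs in each deposited matrix. Their median depth was 691, 1068, 1077 and 1338 UMIs in controls 1 to 4, and 589, 649, 572 and 610 UMIs in tumors 1, 2, 4 and 5. Some of these barcodes may be shallow cells, which was not tested, so their values are not of free RNA alone. In tumor 3 all 9001 barcodes of the matrix were candidates for members, so its barcodes with fewest UMIs are no separate pool and no free RNA value is given for it. Shares of barcodes with a UMI were read against barcodes with UMIs of at least 6 of 8 microglia genes, 768 in controls and 4867 in tumors, since microglia should lack neuroblast genes. Intervals cover counting error only.

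Members were rare in every mouse except tumor 5. They made up 0.320%, 1.01%, 0.996% and 0.769% of kept barcodes in controls 1 to 4. In tumors 1 to 4 they made up 0.351%, 0.706%, 1.88% and 0.911%, and in tumor 5 they made up 22.6% (95% exact binomial interval 21.8 to 23.4%). The ranges overlapped, and tumor 5 stood above all other mice. Tumors averaged 5.29% ± 9.70 (SD, n = 5), controls averaged 0.774% ± 0.322 (SD, n = 4), and the 4.52 points between them fell short of a two-sided exact permutation test (p = 0.659, also after Benjamini-Hochberg adjustment over 3 tests of shares). Without tumor 5 the difference was 0.189 percentage points (exact permutation p = 0.771). Kept barcodes were also thinned to 1000 UMIs, leaving out those with fewer, which were 333, 6 and 4190 in tumors 1 to 3 and none in the other mice, and 101 of the 126 members of tumor 3 had that depth. Over the barcodes so thinned the share was 0.0699 to 0.265% in controls, 0.119%, 0.235%, 2.11% and 0.190% in tumors 1 to 4 and 8.21% in tumor 5.

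**Figure D1:**
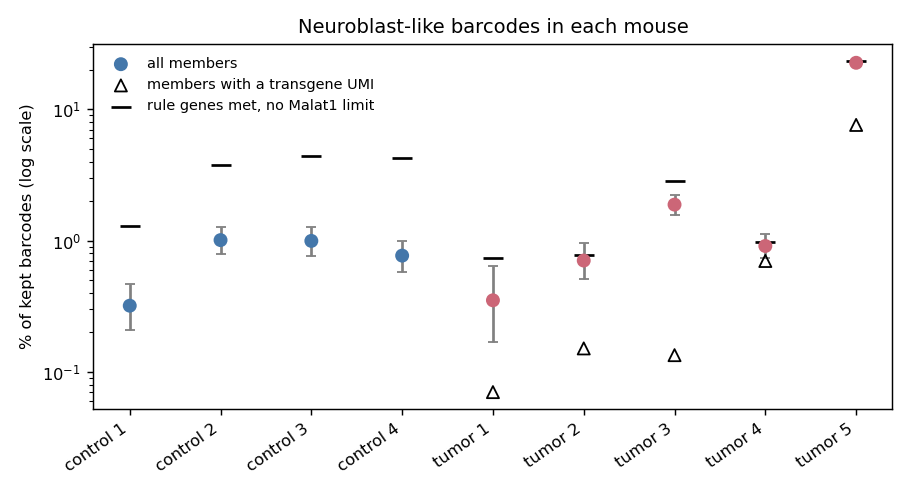
Members as a percentage of kept barcodes in each mouse, on a log scale, with 95% exact binomial intervals; triangles give members with a transgene UMI and black dashes the barcodes that met the gene rule at any Malat1 level. Tumor 5, at 22.6%, lies above the other 8 mice, which span 0.320 to 1.88%, and the dashes lie well above the points in controls.

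The Malat1 limit took far more barcodes from controls than from tumors. Malat1 is a nuclear RNA, and its median share was 6.24 to 7.21% of UMIs over the kept barcodes of controls, above the limit itself, against 0.539 to 2.86% in tumors. The limit left out 73.3 to 81.8% of the control barcodes that met the gene rule. In tumors 1 to 5 it left out 52.4%, 8.70%, 34.0%, 6.19% and 3.83%. Without the limit the shares were 1.30 to 4.39% in controls and 0.738%, 0.773%, 2.85%, 0.971% and 23.5% in tumors, so that controls 2 to 4 lay above tumors 1 to 4. The group difference was then 2.34 percentage points (exact permutation p = 0.992). The barcodes left out in controls held more mature neuron RNA than members, with 39561 to 42923 CPM (counts per 1000000 UMIs) summed over 14 mature neuron genes against 16057 to 26034 CPM. Of these genes Meg3 alone was at 5366 to 12700 CPM in the members of controls, so a single RNA made up a large part of their sums.

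Near the thresholds the counts ran on without a gap. Members with Malat1 at 3 to 5% numbered 19 to 48 in each control, and 23 to 73 barcodes lay at 5 to 7%. In tumor 5 these counts were 238 and 58. Exactly 3 rule genes were found in 57.7 to 76.0% of the members of each control, and in 70.0%, 33.3%, 42.9%, 53.8% and 45.9% of those of tumors 1 to 5. Barcodes just outside, with 2 rule genes, numbered 180 to 320 in each control, 65 to 348 in tumors 1 to 4 and 2044 in tumor 5. All 8 genes were found in no control member, in 2, 14 and 1 members of tumors 2, 3 and 4, and in 55 members of tumor 5.

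The genes of the rule did not stand at the same levels in all mice, and these values chose the members, so they are given as a description. Igfbpl1 was at 376, 98.6, 233 and 55.1 CPM in the members of controls 1 to 4, and at 345, 1297, 1019, 1131 and 1350 CPM in those of tumors 1 to 5. Tumors 2 to 5 lay above every control. Dlx2 was at 45.9 to 85.5 CPM in controls and at 145, 240, 368, 136 and 322 CPM in tumors, with no overlap. Dlx1 was at 228 to 355 CPM in controls and at 363, 584, 786, 296 and 378 CPM in tumors, and tumor 4 fell within the control range. Dcx was lowest in tumor 5, at 97.6 CPM with a UMI in 29.0% of members, against 253 to 462 CPM in controls and 418 and 507 CPM in tumors 2 and 3. In tumors 1 and 4 it was at 200 and 204 CPM, also below every control. Sp9 was lowest in tumor 4, at 13.6 CPM, against 40.8 to 144 CPM in controls. Gad2 and Dlx6os1 were at 432 to 547 and 450 to 598 CPM in controls and at 220 to 454 and 273 to 613 CPM in tumors.

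The pool used to gauge free RNA held some of these genes. In the barcodes with fewest UMIs, Igfbpl1 was at 2.08 to 2.54 CPM in controls, 15.6 and 34.9 CPM in tumors 2 and 4 and 389 CPM in tumor 5, and Dlx1 was at 125 CPM in tumor 5 and 2.33 CPM in tumor 4. Gad2 was at 259 to 295 CPM there in controls and at 275 CPM in tumor 5. Of the microglia-gene barcodes before members were taken out, 8.28% met the full rule in tumor 5, 0 to 0.286% in tumors 1 to 4 and 0, 0, 2.38 and 0.541% in controls 1 to 4. The share of members in tumor 5, 22.6%, was above this level, and in control 3 the share of 0.996% was below it.

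Against the neuroblast label, the members divided into mice with many and mice with few Meis2 or Sp8 UMIs. Meis2 and Sp8, transcription factors of neuroblasts bound for the olfactory bulb, were not part of the rule and were chosen as a pair after their values were seen, so no test is given for the share of cells. A Meis2 or Sp8 UMI was found in 50.0%, 42.7%, 64.1% and 61.8% of the members of controls 1 to 4. In tumors 2 and 3 it was found in 64.3% and 71.4%, and in tumors 4 and 5 in 9.89% (interval 4.62 to 17.9%) and 4.60% (3.78 to 5.55%). Tumor 1, with 10 members, had 2 such cells. The members of tumors 2 to 5 had median depths of 3291, 2710, 6397 and 3543 UMIs. The same share in microglia-gene barcodes was 11.1 to 31.5% in controls and 2.53 to 5.44% in tumors. After thinning to 1000 UMIs it was 18.7 to 43.8% of members in controls, 40.5% and 55.4% in tumors 2 and 3, and 1.10% and 1.28% in tumors 4 and 5, where microglia-gene barcodes gave 0.632% and 1.31%.

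**Figure D2:**
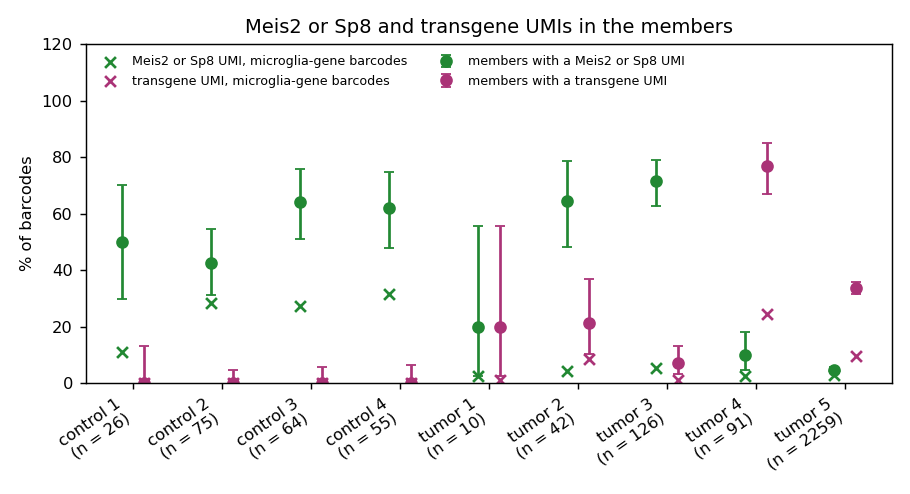
Percentage of members with a Meis2 or Sp8 UMI (green) and with a transgene UMI (purple) in each mouse, with 95% exact binomial intervals, and the same shares in barcodes with UMIs of at least 6 of 8 microglia genes (crosses). The Meis2 or Sp8 share is high in tumors 2 and 3 and low in tumors 4 and 5. The transgene share is highest in tumor 4, and that of tumor 5, 33.6%, lies within the interval of tumor 2 (10.3 to 36.8%).

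Levels showed the same division. Meis2 was at 345 to 867 CPM in the members of controls, 701 and 915 CPM in tumors 2 and 3, and 12.1 and 6.70 CPM in tumors 4 and 5. Sp8 was at 10.2 to 103 CPM in controls, 67.6 and 145 CPM in tumors 2 and 3, and 1.51 and 5.72 CPM in tumors 4 and 5. Stmn2, a tubulin-binding protein of growing neurites, was at 611 to 912 CPM in controls, 866 and 957 CPM in tumors 2 and 3, and 256 and 166 CPM in tumors 4 and 5. Tumors 4 and 5 thus lay below every other mouse in Stmn2, and below all controls and tumors 2 and 3 in Meis2 and Sp8. Other genes ran the opposite way. Dlk1, an imprinted inhibitor of Notch-type signalling in progenitors, was at 9.19 to 51.3 CPM in controls, 227 and 200 CPM in tumors 2 and 3, and 2741 and 837 CPM in tumors 4 and 5. Lmx1b, a LIM homeodomain factor, was at 0 to 4.59 CPM in controls, 12.3 and 5.62 CPM in tumors 2 and 3, and 110 and 69.8 CPM in tumors 4 and 5. Isl1, another LIM homeodomain factor, was at 0 to 13.6 CPM in controls and at 301, 4.22, 73.9 and 133 CPM in tumors 2 to 5, so that tumor 3 stayed within the control range.

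**Figure D3:**
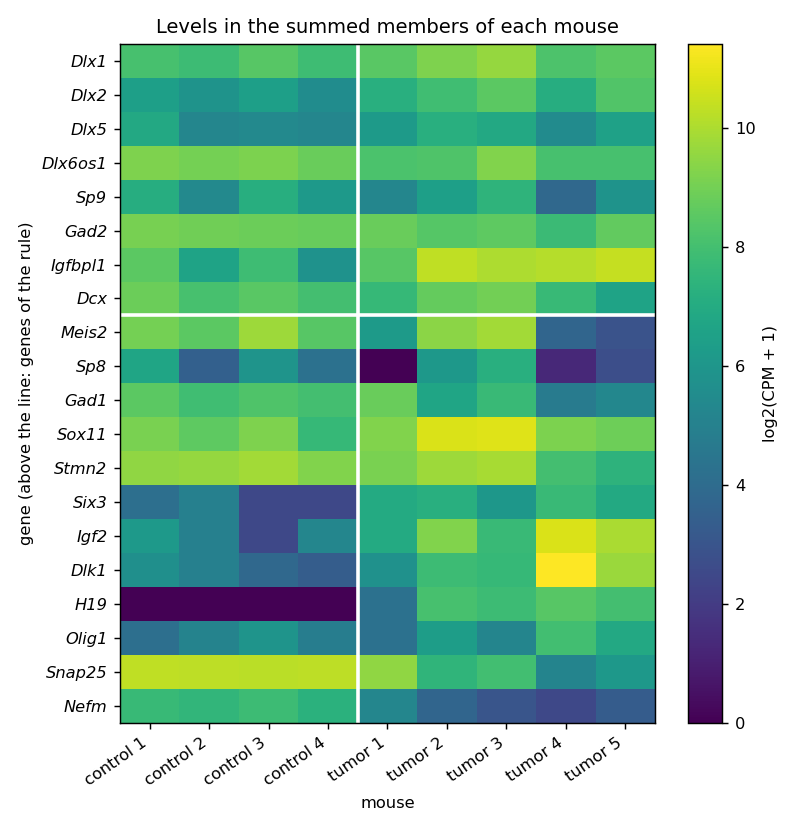
Levels of the 8 rule genes (above the white line) and of 12 other genes in the summed members of each mouse, as log2(CPM + 1), with controls left and tumors right of the vertical line. Meis2 and Sp8 are dark in tumors 4 and 5, where Igf2 and Dlk1 are brightest, and H19 is at 0 in all 4 controls.

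The members with 5 or more rule genes matched the label more closely in controls. There were 5, 8, 18 and 4 of them in controls 1 to 4, and 80.0%, 100%, 94.4% and 75.0% had a Meis2 or Sp8 UMI. The 14 mature neuron genes summed to 9290 to 13442 CPM in them, against 16057 to 26034 CPM over all members of controls. Sox11, a factor of newborn neurons, was at 696 to 2126 CPM in these cells against 202 to 597 CPM over all members of controls. In tumors 4 and 5 there were 28 and 699 such members, with a Meis2 or Sp8 UMI in 10.7% and 7.15% and Dlx1 at 641 and 540 CPM. Their mature neuron genes summed to 2403 and 3442 CPM, against 3360 and 3861 CPM over all members of these tumors. In tumors 2 and 3 it was 90.0% of 20 and 85.4% of 48.

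Transgene UMIs were absent from all 220 control members. A count of 0 allows, at a floor of 3 counts, a share of up to 4.00 to 11.5% in each control. Among the other kept barcodes of controls 1 to 4, 0, 2, 11 and 16 had a transgene UMI. In tumors 1 to 5, 2 of 10, 9 of 42, 9 of 126, 70 of 91 and 760 of 2259 members had one, which is 20.0%, 21.4%, 7.14%, 76.9% and 33.6%. Most came from luciferase, with a luciferase UMI in 69 of the 70 cells in tumor 4 and 572 of the 760 in tumor 5, and a fusion UMI in 7 and 159. The other kept barcodes of the same tumors gave 2.65%, 21.7%, 2.15%, 58.5% and 17.1%. The members exceeded them in 4 of 5 tumors, by a mean of 11.4 percentage points ± 8.48 (SD, n = 5), which did not pass the exact sign-flip permutation test over tumors (p = 0.125, adjusted p = 0.188, smallest possible 0.0625). Members were deeper, at median UMIs of 2710 to 6397 against 813 to 4502 over all kept barcodes of the tumors, and after thinning the mean difference was 4.26 percentage points (exact p = 0.313). Thinned members then lay below the other barcodes in tumor 2 (4.76 against 7.79%) and tumor 3 (0.990 against 1.41%). They lay above them in tumors 1, 4 and 5 (10.0 against 1.20%, 34.1 against 21.2% and 11.7 against 8.66%). In microglia-gene barcodes the share was 1.27%, 8.41%, 1.05%, 24.4% and 9.52%, so that transgene UMIs also occurred in barcodes of another type.

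In tumor 2, members with and without a transgene UMI differed in Meis2 and Sp8. Of the 33 cells without one, 25 (75.8%) had a Meis2 or Sp8 UMI, and of the 9 with one, 2 (22.2%) had, and the latter were deeper, at a median of 6626 UMIs against 2774. Tumor 3 did not show this, with 8 of 9 (88.9%) and 82 of 117 (70.1%), but its 9 cells were at a median of 23524 UMIs, and Meis2 itself was at 60.2 CPM in them against 1176 CPM in the cells without. In tumors 4 and 5 the share was low in both arms, at 11.4% with and 4.76% without in tumor 4 and at 4.47% with and 4.67% without in tumor 5. A missing UMI does not show that a cell lacked the transgene.

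Transgene-positive barcodes outside the rule were a reference within the same tumors. The rule limits how many of its genes they hold, not the level of each: Igfbpl1 was at 262, 33.3, 335, 81.6 and 858 CPM in them in tumors 1 to 5, with a UMI in 65.2% of those of tumor 5, so that in tumor 5 it was above every control's members. Dlx1 was at 54.1 CPM in them in tumor 5 and at 0.539 to 7.18 CPM in tumors 1 to 4. Six3, a homeodomain factor of the forebrain, was at 147 to 200 CPM in them in tumors 1 to 4 and at 105 CPM in tumor 5. In transgene-positive members it was at 528, 390, 90.3, 218 and 141 CPM in tumors 1 to 5, lower than in the other barcodes in tumor 3 alone. Olig1, a factor of the oligodendrocyte lineage, was at 557, 983 and 851 CPM in these other barcodes in tumors 2 to 4 and at 223 CPM in tumor 5. In transgene-positive members it was at 37.2, 12.04, 260 and 120 CPM in tumors 2 to 5, lower in each of these 4 tumors. Dlk1 was likewise lower in the transgene-positive members, at 353, 301, 2987 and 933 CPM against 2369, 2434, 4260 and 1418 CPM. The members were chosen within the same cells, so no test of these differences is given.

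Cell cycle RNA was found in a larger share of tumor members, short of the adjusted threshold. UMIs of at least 3 of 20 cycle genes were found in 7.69%, 2.67%, 12.5% and 3.64% of the members of controls 1 to 4 and in 31.0%, 28.6%, 37.4% and 55.9% of those of tumors 2 to 5, with no overlap. The means were 38.2% ± 12.4 (SD, n = 4) and 6.62% ± 4.48 (SD, n = 4), and the difference of 31.6 percentage points had an exact permutation p of 0.0286, the smallest that 4 mice against 4 can give, and 0.0857 after adjustment over the 3 tests, which does not pass. Tumor 1, with 2 such cells of 10, was too small to enter. The microglia-gene barcodes had such UMIs in 0.610 to 1.81% in controls and in 24.2%, 4.96%, 25.2% and 31.2% in tumors 2 to 5, so the level in tumor 2 is near that of another cell type. The other kept barcodes gave 0.222 to 0.691% in controls and 29.2%, 3.74%, 29.5% and 37.0% in tumors 2 to 5. In tumors 2 and 4 this value lay within the members' interval (17.6 to 47.1% and 27.4 to 48.1%). Thinned to 1000 UMIs, the members gave 0 to 7.69% in controls and 21.4%, 17.8%, 11.0% and 24.9% in tumors 2 to 5, against 7.11%, 0.828%, 6.03% and 8.70% of microglia-gene barcodes. In tumors 4 and 5, 41.4% and 66.6% of members with a transgene UMI had cycle UMIs, and 23.8% and 50.5% of those without. After thinning the shares were 12.9% and 4.76% in tumor 4 and 28.3% and 23.1% in tumor 5.

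**Figure D4:**
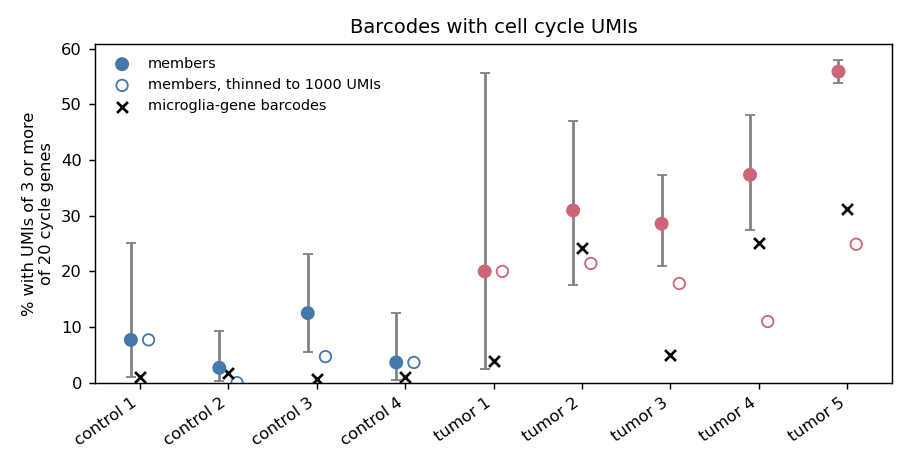
Percentage of members with UMIs of 3 or more of 20 cell cycle genes in each mouse (filled, with 95% exact binomial intervals), after thinning to 1000 UMIs (open), and in microglia-gene barcodes (crosses). The 4 tumors that entered the test span 28.6 to 55.9% and the controls 2.67 to 12.5%.

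Gene levels were then compared between the members of tumors 2 to 5 and those of the 4 controls, from UMIs summed per mouse (edgeR quasi-likelihood test, Benjamini-Hochberg adjusted p below 0.05). Of 4871 genes tested, 2273 (46.7%) were called, 1128 (23.2%) higher and 1145 (23.5%) lower in tumors, with a median log2 fold change of 0.02 over all genes. With so many genes called, a call on a single gene says little about the members in particular. A gene could pass the count filter through the group where it is high, so genes scarce in controls were tested only where tumors held enough UMIs, and the reverse. The counts and medians of the lists below therefore describe the tested genes and support nothing about a list as a whole. The sums of controls rest on 26 to 75 cells each, and those of tumors on 42, 126, 91 and 2259. limma voom called 2222 genes, but of the genes named below it did not call Ccnd1, Dlk1, Gadd45g, Hes6, Igf2, Insm1, Olig1, Six3, Sox11 and Vim, whose adjusted p lay between 0.0504 and 0.340.

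Several progenitor genes rose in tumor members. Of 14 genes of intermediate progenitors and Notch signalling, 8 were tested, of which 6 rose and none fell, with a median log2 fold change of 2.88. Among all genes tested, 23.2% were called higher. Hes6, an inhibitor of Hes1, was at 0 to 20.4 CPM in controls and at 203, 120, 350 and 160 CPM in tumors 2 to 5, with no overlap (log2 fold change 4.03 ± 0.52 SE, edgeR adjusted p = 2.2e-04). Insm1, a zinc finger factor of basal progenitors, was at 3.40 to 68.4 CPM in controls and at 166, 250, 98.0 and 67.9 CPM in tumors, where tumor 5 came within the control range (3.33 ± 0.69, adjusted p = 0.0025). Gadd45g, a growth arrest gene downstream of proneural factors, also rose (5.33 ± 0.61, adjusted p = 1.3e-04). Egfr and Hes5 were not called. Of 13 radial glia genes, 10 were tested, of which 4 rose, none fell and 6 were not called. Over all genes 46.7% were called, so this list was called no more often than genes at large. The radial glia genes that rose included Sox2 (log2 fold change 1.63) and Vim (2.50). Sox2 was not called after thinning to 1000 UMIs (1.05, edgeR adjusted p = 0.0774).

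Of 20 cell cycle genes, 13 were tested, of which 11 rose and none fell (median log2 fold change 2.16), against 23.2% of all genes called higher. Cdk1 was at 0 to 34.2 CPM in controls and at 61.5, 81.5, 90.5 and 116 CPM in tumors 2 to 5 (3.21 ± 0.56, adjusted p = 9.8e-04), and Birc5, a mitotic survivin, at 4.49 to 32.2 and 125 to 157 CPM (3.42 ± 0.44, adjusted p = 2.0e-04). For both genes the groups did not overlap. In the barcodes with fewest UMIs, Cdk1 was at 0.318 to 1.26 CPM in controls and at 41.0, 54.7 and 64.2 CPM in tumors 2, 4 and 5. Birc5 was at 0.946 to 2.59 CPM there in controls and at 47.3, 75.0 and 70.3 CPM in these tumors. Both genes were thus lower there than in the members of these tumors. The part of free RNA in this rise was not tested. Top2a and Cenpf were not called. Control 1, with 26 members, came closest to the tumors: Mki67, a marker of dividing cells, was at 188 CPM in it, above the 103 and 106 CPM of tumors 3 and 4, and Top2a, a topoisomerase, was at 376 CPM against 137 to 289 CPM in tumors 2 to 5. The 20 cycle genes summed to 1983 CPM in control 1, 139 to 731 CPM in controls 2 to 4 and 2097 to 3731 CPM in tumors 2 to 5.

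Genes of immature neurons moved both ways. Of 28, 25 were tested, of which 9 rose and 4 fell (median 0.56), and the 13 called stand against 46.7% of all genes, so the list was called about as often as genes at large. Sox11 was at 564, 381, 597 and 202 CPM in controls and at 1776, 1878, 580 and 479 CPM in tumors 2 to 5, and of these tumors 2 and 3 lay above all controls (1.55 ± 0.47, adjusted p = 0.018). Without control 2 or control 4 Sox11 was not called (adjusted p = 0.0567 and 0.0619). Cd24a, a surface glycoprotein of neuroblasts, was at 36.8 to 80.8 CPM in controls and 175 to 439 CPM in tumors 2 to 5, with no overlap (2.42 ± 0.34, adjusted p = 3.3e-04). Gap43, a growth cone protein, fell from 395 to 449 CPM in controls to 118 to 161 CPM in tumors 2 to 5 (fell by 1.50 on the log2 scale, adjusted p = 1.7e-04), but tumor 1, outside the fit, was at 545 CPM, above every control.

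Of 20 GABAergic and DLX-associated genes outside the rule, 11 were tested, of which 2 rose, 2 fell and 7 were not called (median 0.01). Over all genes 46.7% were called. Six3 rose, from 17.1, 30.6, 4.49 and 4.59 CPM in controls to 147, 64.7, 214 and 120 CPM in tumors 2 to 5 (3.29 ± 0.57, adjusted p = 9.8e-04). Gad1, the other GABA-making enzyme, fell, from 238 to 376 CPM in controls to 105, 212, 25.6 and 37.6 CPM in tumors (fell by 1.56, adjusted p = 0.033), and Erbb4, a neuregulin receptor of interneurons, also fell. The call on Gad1 was lost on leaving out any mouse except tumor 3, at adjusted p of 0.0501 to 0.0868. In tumor 1 Gad1 was at 454 CPM, above every control, and with tumor 1 in the fit it was not called (adjusted p = 0.159). Meis2 and Sp8 were not called (log2 fold change -0.32 ± 1.09 with adjusted p = 0.84, and 0.54 ± 1.18 with adjusted p = 0.74), and their spread lay between tumors 2 and 3 and tumors 4 and 5, as above.

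**Figure D5:**
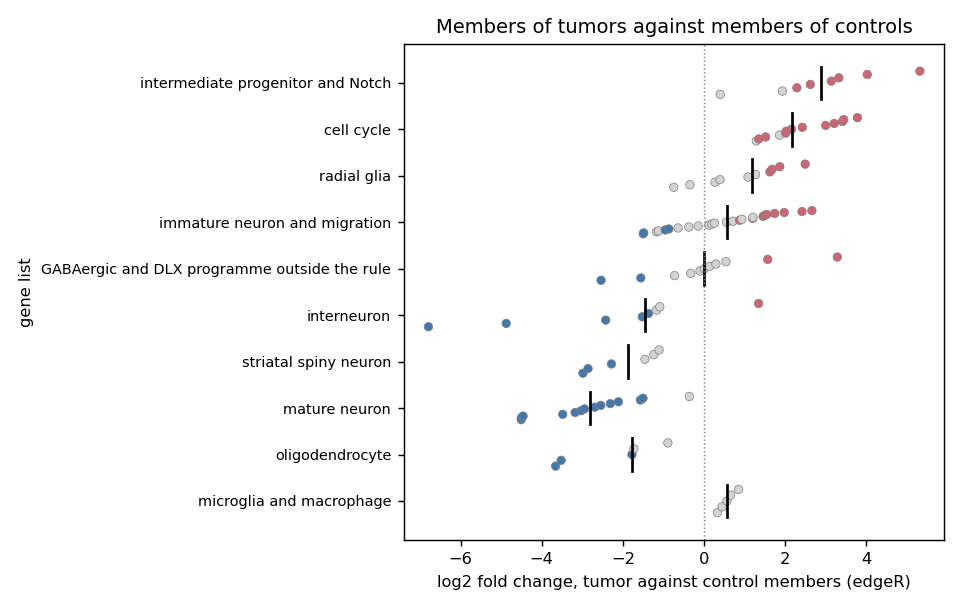
Log2 fold changes of tumor against control members for the tested genes of 10 gene lists, with red for higher and blue for lower at an edgeR adjusted p below 0.05, grey for not called and a black bar at each list's median. Progenitor and cycle genes lie to the right, mature neuron genes to the left, and the GABAergic genes outside the rule centre on 0.

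Mature neuron genes fell in 13 of 14, all tested, with a median log2 fold change of -2.82. Snap25, a synaptic vesicle fusion protein, was at 1203 to 1265 CPM in the members of all 4 controls and at 178, 252, 34.7 and 67.2 CPM in tumors 2 to 5 (fell by 3.18 on the log2 scale, adjusted p = 4.8e-04). Of 10 interneuron genes 8 were tested, of which 5 fell and 1, Calb2, rose, and of 10 genes of striatal spiny neurons 6 were tested, of which 3 fell. Over all genes 23.5% were called lower. Vip, an interneuron peptide, was at 40.4 to 98.6 CPM in controls and at 0 in tumors 2 to 4 (adjusted p = 6.5e-05). The pool used to gauge free RNA moved with these groups: in the barcodes with fewest UMIs, Snap25 was at 1468 to 1817 CPM in controls, above its level in the members, and at 464, 8.14 and 245 CPM in tumors 2, 4 and 5. The summed mature neuron genes stood at 10697 to 14879 CPM in the microglia-gene barcodes of controls and at 1511 to 2314 CPM in those of tumors 2 to 5. The part of free RNA in the result was not tested.

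The genes with the smallest p-values were partly of other cell types. Among those that fell were Ttr, Nme7, Nefm, Disp2, Itpr1, Ckmt1 and Got1. In tumor 1, outside the fit, Ckmt1 was at 182 CPM and Got1 at 382 CPM, above every control (85.3 to 152 and 197 to 230 CPM). The others of these genes were below every control in tumor 1. Ttr, a transthyretin gene of choroid plexus, was at 684 to 1383 CPM in control members and at 6.15, 0, 0 and 1.51 CPM in tumors 2 to 5 (adjusted p = 3.1e-06), while the barcodes with fewest UMIs held 1552 to 2449 CPM in controls. Ttr was thus lower in the members of each control than in its barcodes with fewest UMIs. Of 5 oligodendrocyte genes 3 fell, of 6 astrocyte genes 1 fell, and of 5 microglia genes none was called, at sums over 9 genes of 265 to 1369 CPM in control members and 273 to 1159 CPM in tumors 2 to 5. Over all genes 23.5% were called lower.

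Among those that rose were Mfap2, Hmgn2, Selenoh, H19, Ube2s, H2afv and Rplp0. Mfap2, a microfibril protein, was at 17.1, 17.0, 35.9 and 4.59 CPM in controls and at 399, 477, 493 and 538 CPM in tumors 2 to 5 (4.76 ± 0.38, adjusted p = 3.9e-05). Hmgn2, a nucleosome-binding protein of dividing and immature cells, was at 112 to 189 CPM in controls and at 1217, 2390, 1315 and 1418 CPM in tumors (3.53 ± 0.28, adjusted p = 3.9e-05). Both groups were far apart, and tumor 1, left out for its 10 cells, had 200 and 763 CPM, also above every control. Rplp0 codes for a ribosomal protein.

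Of 16 genes tied to the fusion in this tumor type, 7 were tested, of which 6 rose, and the other 9 were not tested. Among all genes tested, 23.2% were called higher. The list was drawn from knowledge of the tumor and from earlier results of these data and is no independent evidence. Igf2, an imprinted growth factor, was at 4.49 to 68.4 CPM in controls and at 615, 212, 1768 and 1014 CPM in tumors 2 to 5 (5.08 ± 0.72, adjusted p = 3.4e-04). H19, the imprinted RNA next to Igf2, had no UMI in 792825 UMIs of control members and was at 270, 224, 348 and 258 CPM in tumors 2 to 5, at least 72.7-fold higher on the mean against a floor of 3 counts over the control group. Dlk1 (5.63 ± 0.96) and Ccnd1, a G1 cyclin (3.38 ± 0.57), rose too, and L1cam fell. Olig1 rose from 17.1 to 58.4 CPM to 79.9, 35.1, 252 and 117 CPM (1.83 ± 0.59, adjusted p = 0.023), a call lost without control 2 or control 4 (adjusted p = 0.0766 and 0.0750). In tumor 1, outside the fit, Igf2 was at 127, Dlk1 at 54.5 and Olig1 at 18.2 CPM, and Olig1 thus within the control range. The pool used to gauge free RNA held these genes as well: Igf2 was at 1133, 1930 and 742 CPM and H19 at 1041, 747 and 237 CPM in the barcodes with fewest UMIs of tumors 2, 4 and 5, above the members' level for both genes in tumors 2 and 4. Olig1 was at 384, 769 and 163 CPM there, above the members in each of these tumors. Ccnd1 was at 398, 532 and 163 CPM there, against 172, 315 and 257 CPM in members. Dlk1 was at 676, 1810 and 543 CPM there, against 227, 2741 and 837 CPM in members. The part of free RNA in these calls was not tested. Among cells without a transgene UMI alone, 1761 of 4401 genes were called.

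Within tumors, members with a transgene UMI were set against members without. Only tumors 4 and 5 had at least 10 cells in each arm (70 and 21, 760 and 1499), so the test had 2 pairs. With the mouse as a block, edgeR called 287 of 11565 genes (2.48%), 153 higher (1.32%) and 134 lower (1.16%) in cells with a transgene UMI. These calls were not stable: DESeq2 called 4, none passed without the block (89 at an unadjusted p under 0.05), and none of 7137 passed when tumors 2 and 3 were added (394 at an unadjusted p under 0.05). Depth differed between the arms, at median UMIs of 7692 and 3364 in tumor 4 and 4768 and 2865 in tumor 5, and 8 of 6492 genes were called after thinning. No leave-one-out fit was possible with 2 tumors, and the values are given by tumor.

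The genes that led in cells with a transgene UMI were Cdkn1c, H19, Fos, Wnt10a, Lmo1, Thumpd3, Egr1 and D030055H07Rik. Cdkn1c, an imprinted inhibitor of cyclin-dependent kinases, was at 561 CPM with and 105 CPM without in tumor 4, and at 1839 and 995 CPM in tumor 5. In tumors 2 and 3, outside the fit, it was at 335 and 2010 CPM with and 55.1 and 262 CPM without, and thus higher with a transgene UMI in all 4. Tumor 1, with 2 and 8 cells in the arms, went the other way, at 0 and 47.9 CPM. Thumpd3 was at 815 and 269 CPM in tumor 4, 317 and 205 CPM in tumor 5, 260 and 211 CPM in tumor 2, and 205 and 56.9 CPM in tumor 3. It lies on GRCm38 at chr6:113046225-113068273, plus strand, and overlaps Gt(ROSA)26Sor (chr6:113067428-113077333, minus strand), the locus to which the study's methods say the fusion construct was targeted. The part of that insertion in the result was not tested. H19 was at 376 and 164 CPM in tumor 4, 351 and 182 CPM in tumor 5 and 861 and 29.3 CPM in tumor 3, but at 260 and 275 CPM in tumor 2. Fos, an immediate early gene, was at 682 and 211 CPM in tumor 4, 63.3 and 38.2 CPM in tumor 5 and 186 and 64.3 CPM in tumor 2, but at 12.04 and 193 CPM in tumor 3. Egr1, another immediate early gene, was likewise higher with a transgene UMI in tumors 2, 4 and 5 and lower in tumor 3, at 12.04 and 227 CPM.

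The genes that led in cells without a transgene UMI were mostly of microglia and macrophages: Cxcl13, Ccl4, C1qa, Ctss, C1qb and C1qc, with Snhg11, a neuronal RNA. Of 9 microglia genes tested 7 fell with a transgene UMI and none rose, against 1.16% of all genes lower and 1.32% higher. Other lists were called as well. Of 27 immature neuron genes tested 10 fell and none rose, and of the 8 rule genes, which chose the members, 4 fell. Of 20 cell cycle genes tested 8 rose, and of 14 genes tied to the fusion 7 rose. C1qa was at 201 CPM with and 971 CPM without in tumor 4 and at 112 and 213 CPM in tumor 5. Cxcl13 was at 58.8 and 749 CPM in tumor 4 but at 0 and 0.783 CPM in tumor 5, and so came from a single tumor. UMIs of at least 6 of 8 microglia genes were found in 1 of 21 members without and 4 of 70 with a transgene UMI in tumor 4, and in 43 of 1499 and 12 of 760 in tumor 5. The part of such barcodes in the result was not tested.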

How the data were processed

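Single-cell RNA libraries (10x Genomics 5′) of 4 control and 5 tumor mice were analysed from the raw UMI count matrices that the authors deposited. Per the labels these were made with Cell Ranger 7 against mm10, with Scanpy 1.8.2 downstream, whereas the matrix headers name Cell Ranger 6.1.2. The reference held 32285 mouse genes and 4 added sequences. Control 4 has a feature list 2 lines and a barcode list 22 lines short, and its added sequences were read by the other mice's list. Deposited matrices hold barcodes of at least 468 to 517 UMIs. Deposited counts were used without normalization, as CPM of summed UMIs for levels.

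The members and gene lists were chosen with earlier results of these data known. Named genes are list members and, per comparison, the 8 with the smallest p-value in each direction that passed 0.05 and kept their direction with each mouse left out (in each tumor alone for the transgene comparison), leaving out rule genes, Malat1 and added sequences. Cells were summed per mouse (at least 20 cells, or 10 per arm) and tested with edgeR 4.0.16 (quasi-likelihood, TMM, filterByExpr); DESeq2 1.42.0 and limma 3.58.1 were alternatives, in R 4.3.3. Shares were compared over mice by two-sided exact permutation. Intervals are 95% Clopper-Pearson. Doublets were not removed in the main results; an alternative removed the highest Scrublet scores (scanpy 1.11.5) at 0.8% per 1000 kept barcodes. In simulated counts for tumors against controls, edgeR recovered 64.5% of 200 genes changed by 1.5 on the log2 scale among 4871, with 3.01% of its calls false. For members with against without a transgene UMI in 2 tumors it recovered 83.5% of 200 such genes among 11565, with 8.24% of calls false (DESeq2 17% with none false), and in 4 tumors 82% among 7137, with 9.39% false. Each sample is taken as 1 mouse, and p-values measure the spread between these samples. Mice of 1 group differed by more than sampling noise. Some genes that the rule for named genes picks are not reported here.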

Additional observations from a re-analysis of the deposited data

Results flagged for a closer look

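Of 76 group values checked for a mouse far from its group (Dixon's criterion at 95%, which chance meets in about 1 in 20), 9 were flagged. Tumor 5 stood apart in the share of members, at 22.6% against 0.351 to 1.88% in the other tumors, and at 8.21% after thinning against 0.119 to 2.11%. Control 1 had more Dlx5 in its members, at 120 CPM against 36.8 to 40.4 CPM, and less Ttr, at 684 CPM against 1273 to 1383 CPM. Tumor 3 had more Dlx6os1, at 613 CPM against 273 to 307 CPM. Tumor 1, with 10 members, had more Gap43, at 545 CPM against 118 to 161 CPM, more Ttr and Nefm, both at 36.3 CPM against 0 to 6.15 and 4.52 to 12.3 CPM, and more Vip, at 18.2 CPM against 0 to 0.540 CPM. Its Ttr, Nefm and Vip rest on 2, 2 and 1 UMIs. It did not enter the main gene tests.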

How the results depend on the processing

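The direction of the 3 share comparisons held under every alternative run. For cycle UMIs the replicate block gave 26.03 percentage points (exact p = 0.25, the smallest 3 pairs can give, so that it could not pass). Replicate numbers did not pair the mice, since deviations of same-numbered mice correlated at -0.0184, -0.0427 and -0.0412. With each mouse left out in turn, the share difference was 0.189 to 5.75 points, lowest without tumor 5, the transgene difference 9.67 to 14.3 points and the cycle difference 25.7 to 34.8 points. For tumors against controls, 2273 genes were called, 1784 to 2725 with a mouse left out, 1732 of 7770 with the replicate block, 3968 of 20347 with no filter on low counts and 515 of 1181 after thinning, 497 of them among the 2273. Fewer genes were testable after thinning. For members with against without a transgene UMI, 287 genes became 4 with DESeq2, 81 with limma voom, 190 with no filter, 0 with no replicate block, 0 with tumors 2 and 3 added and 8 after thinning; with tumors 2 and 3 added and each tumor left out, an alternative chosen after seeing the data, 1, 1, 0 and 2 were called without tumors 2, 3, 4 and 5, and the cause was not tested. Leaving out a tumor of the 2 in the main comparison leaves no residual degrees of freedom and was not run. Meis2, not called at a log2 fold change of -0.32, ranged from -1.32 to 0.18 with a mouse left out, positive without control 3, tumor 4 or tumor 5, was 0.072 in cells without a transgene UMI, and was -3.55 with limma voom (adjusted p = 0.0557). Sp8, not called at 0.54, ranged from -1.71 to 1.17 with a mouse left out, negative without tumor 3, and was -1.39 with limma voom. Without tumor 4 and with tumors 2 and 3 added, Fos turned to -0.12 and Egr1 to -0.24. Of 656 gene values under other settings for tumors against controls, 32 lost their call, among them Gad1, Olig1, Sox11 and Sox2. For members with against without a transgene UMI, 111 of 219 such values lost their call and 2 reversed. Depth limits the sums of controls, which hold 58501 to 293976 UMIs.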

Other observations

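The controls' own reporter gave a readout outside the comparisons. UMIs of the red fluorescent reporter were found in 11.5%, 8.00%, 14.1% and 20.0% of the members of controls 1 to 4 (3, 6, 9 and 11 cells), against 4.49%, 7.09%, 7.28% and 17.2% of the other kept barcodes. The share was higher among members in 4 of 4 controls, but the share of the other barcodes lay within the members' 95% exact binomial interval in each (2.45 to 30.2%, 2.99 to 16.6%, 6.64 to 25.02% and 10.4 to 33.0%). No kept barcode of any tumor, member or not, had a reporter UMI.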
